A study of Saccharomyces cerevisiae S288C with 4 samples.

Results

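Of 10 transcripts that encode stress and quiescence transcription factors of budding yeast, 5 rose in cells without *THO2*, beside 18.8% of all 5890 genes tested, and the repressor gene *XBP1* had the highest fold change of them. Fewer of the 10, and fewer of all genes, were called higher when a *tho2Δ* library was left out, and *XBP1* was called in each case. The 10 genes were taken by symbol from a list (*XBP1*, *GIS1*, *RPH1*, *MSN2*, *MSN4*, *HSF1*, *YAP1*, *SKN7*, *HOT1* and *SKO1*) that was chosen with earlier results of these data known. All 10 were found among the 6396 genes of the deposited table, and all 10 passed the filter on low counts. The *tho2Δ* strain (FY254, *MATa ura3Δ0 leu2Δ0 his3Δ1 met15Δ0 tho2Δ::KanMX4*) was set against WT (BY4741, the same genotype with *THO2*), a haploid laboratory strain. Tho2 is a subunit of the THO complex, which joins transcription to the packaging and export of mRNA. Both strains grew at 30°C in rich glucose medium (YPD) and were harvested in mid-log phase, and the sequenced RNA came from a pair of samples of each strain, numbered 3 and 4. The duplicates are not described as separate cultures in the sources used here, so a p-value here reflects only how far these samples spread, which may be technical.

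Most of these regulators are proteins already present that are switched on by a signal. Msn2 and Msn4, a pair of zinc finger activators, are held in the cytoplasm while protein kinase A is active and enter the nucleus under stress or glucose limitation, where they bind the stress response element (STRE) before many genes. Gis1 and its paralog Rph1, both of the JmjC demethylase family, act in the starvation branch below the kinase Rim15. Hsf1 drives the chaperone genes through heat shock elements and is essential for growth. Yap1, kept out of the nucleus by the exportin Crm1, answers oxidants and often works with Skn7, which also belongs to a phosphorelay. Hot1 and Sko1 are switched by Hog1, the kinase of the osmotic stress pathway, Hot1 as an activator and Sko1 as a repressor that becomes an activator. Xbp1, a relative of the cell cycle factors Swi4 and Mbp1, is a repressor that is made under stress and as cells enter quiescence, the resting state of starved cells.

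The *THO2* transcript gave 1 read in each *tho2Δ* library, against 4011 and 2457 reads in WT replicates 3 and 4. The libraries held between 31417222 and 36989697 counts. Values per gene are CPM, counts per 1e6 reads of a library after TMM scaling, which sets each library so that most genes do not move. WT replicate 4 had a TMM factor of 0.723, the lowest of the 4 libraries. The absolute log2 difference between duplicates had a median over genes of 0.0919 in *tho2Δ* and 0.244 in WT. A fit without 1 library takes its spread from the duplicates of the other strain alone. Without a WT library this is the closer *tho2Δ* pair, and more genes were called, so calls gained in that way add no weight. The strains also stood apart in RNA composition: *SCR1*, an abundant noncoding RNA of protein targeting, took 13.7% of counts in both *tho2Δ* libraries, against 8.46% and 7.71% in WT replicates 3 and 4, and protein-coding genes took 74.4% and 75.2%, against 82.3% and 80.5%. The part of this in the results was not tested. With library totals in place of TMM the median gene moved by 0.45 on the log2 scale, with limma on log2(TPM + 1) by 0.39 and on log2(TPM + 0.1) by 0.42, so every change is given relative to TMM. The mating type fitted the label, with *STE2*, the alpha-factor receptor of *MATa* cells, at 742 to 877 TPM in *tho2Δ* and 416 to 635 TPM in WT, and with *STE3*, *MFALPHA1* and *MFALPHA2*, markers of the other type, at 4.51 TPM or less in every library. *URA3* and *MET17* (*MET15*) had 0 counts in every library, but *LEU2*, which both genotypes lack, had 511 and 4276 counts in *tho2Δ* replicates 3 and 4, against 0 and 2512 in WT replicates 3 and 4. The WT duplicates thus differ in a marker that their label gives as deleted. The origin of these reads, and whether the duplicates differ in genotype or carry a plasmid, was not tested, and results that turn on 1 library are given without it. *HIS3* had 586 to 981 counts per library, where the *his3Δ1* allele may keep part of the gene.

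*XBP1* was the gene with the most copies of the STRE before its start codon among the 10. In the 500 bases before the start codon the letters AGGGG, read on either strand, stood 4 times in *XBP1*, 2 times in *RPH1*, once each in *GIS1*, *YAP1* and *SKO1*, and not in the other 5. Among 6000 protein-coding genes with such a window in the R64 genome, 34.1% had at least 1 copy and 0.45% had at least 4. The stretches of 30 bases below, read from the R64 reference on the strand of the gene, show these copies in capitals (CCCCT where the element lies on the opposite strand), because *XBP1* and *GIS1* were the members that rose most and *RPH1*, with 2 copies, was not called.
*XBP1*, chrIX:177696-177725: tattcaccctcaCCCCTaatacccgtttcc
*XBP1*, chrIX:177649-177678: cttcgaagcgccCCCCTtgcgctgggcctc
*XBP1*, chrIX:177569-177598: ccattgctattgCCCCTctCCCCTtctcct
*GIS1*, chrIV:636801-636830: aagaaaacctccCCCCTcctcctcccgcca
*RPH1*, chrV:522931-522960: cagccctcctctCCCCTaaacgtttctttt
*RPH1*, chrV:523231-523260: ttattttaaaatAGGGGgacttaacctttc
*YAP1*, chrXIII:253733-253762: ttttttcctgagCCCCTggttgacttgtgc
*SKO1*, chrXIV:321563-321592: agttactaccaaAGGGGttcaacgtaaaag
*XBP1* and *SKO1* lie on the minus strand and the other 3 genes on the plus strand. In *XBP1* the elements began 463, 416, 336 and 329 bases before the start codon, and the last pair was separated by a pair of bases. The gene is transcribed away from *SGA1*, a glucoamylase gene of sporulation, across 753 bases. The ends of the same 4 elements nearest *SGA1* lay 291 to 425 bases before the start codon of *SGA1*.

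Other elements were sparse in these windows. The letters TTCNNGAA, an inverted pair of heat shock units, stood once before *MSN2*, in 21.2% of all windows, and GAANNTTC, an everted pair, once before *MSN4*, in 19.2% of all windows. The *MSN2* and *MSN4* stretches, with the matches in capitals, are shown because these genes encode the STRE-binding factors themselves and have no STRE in the window.
*MSN2*, chrXIII:346632-346661, minus strand: tcctcatatttTTCGGGAAgatcacaacag
*MSN4*, chrXI:323141-323170, plus strand: aattaaaacgtGAAATTTCctttttgaata
The letters TTANTAA, with any base in the middle, were used for the Yap1 element. They stood 2 times before *SKN7* and once each before *MSN4* and *HOT1*. The *SKN7* matches read TTACTAA and TTATTAA, and those of *MSN4* and *HOT1* read TTATTAA. Of all windows 27.2% had at least 1 match and 4.87% at least 2. The post-diauxic shift element bound by Gis1, AGGGAT, stood 2 times before *SKN7*. Of all windows 15.4% had at least 1 copy and 1.07% at least 2. Neither CTCGAG, the letters of the Xbp1 site, nor TGACGT, the core of the site bound by Sko1, stood before any of the 10 genes, against 8.2% and 13.5% of all windows. Matches of different motifs did not overlap. A match is a description of the sequence, and binding was not measured.

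**Figure D1:**
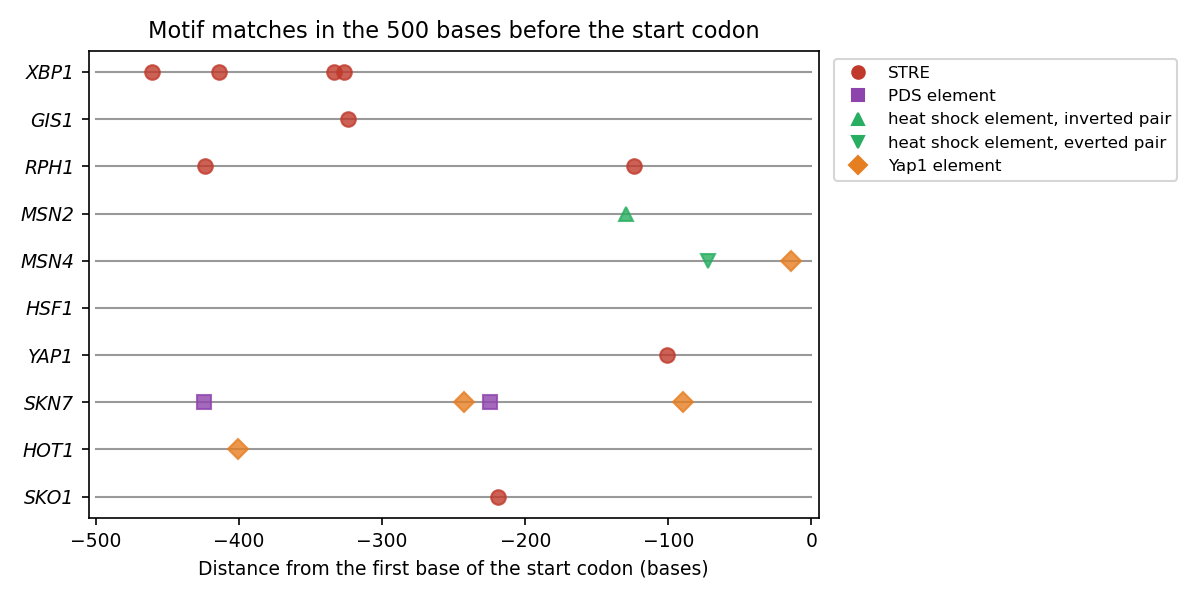
Positions of motif matches in the 500 bases before the start codon of the 10 regulator genes. The x axis is the distance from the start codon in bases, each line is a gene, and each symbol is a match on either strand at its middle. *XBP1* carried 4 STREs between 463 and 325 bases before the start codon, and *HSF1* carried none of the motifs searched.

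*XBP1* was scarce in WT and rose 6.1-fold in *tho2Δ*. It lies on chromosome IX from 175307 to 177250 (R64, minus strand) and codes for 647 residues, and no other annotated gene overlaps it. It had 391 and 575 counts in *tho2Δ* replicates 3 and 4, against 74 and 39 counts in WT replicates 3 and 4. On the TMM scale these were 10.6 and 13.3 CPM in *tho2Δ*, against 2.2 and 1.67 CPM in WT, so the lower *tho2Δ* library was 4.81 times the higher WT library. The log2 fold change was 2.61 (SE 0.24, edgeR adjusted p = 0.00199, by its quasi-likelihood test with p-values adjusted after Benjamini and Hochberg over 5890 genes), and it was the 55th highest of the 5890. The call held in all 13 settings, with log2 fold changes from 2.01 to 3.03. In TPM, which divides by gene length, *XBP1* stood above 15.8% and 18.6% of protein-coding genes in the *tho2Δ* libraries and above 7.5% and 7.1% of them in the WT libraries, so even after its rise the transcript was one of low level. In a bulk sample, fewer cells with the transcript and less of it per cell cannot be told apart.

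The genes whose levels over the 4 libraries ran closest to *XBP1* were *GAC1*, *CSR2*, *ATG39*, *SHC1* and *SPR28*, by Euclidean distance between log2 CPM values centred on each gene's mean. The distances were 0.178, 0.223, 0.237, 0.248 and 0.255 on the log2 scale over 4 libraries. Genes chosen in this way share the rise of *XBP1* through the choice itself, so their calls below are not a separate result. *GAC1*, which targets a phosphatase to glycogen synthase and is also on the list of Msn2 and Msn4 targets, had 113 and 135 CPM in *tho2Δ*, against 27 and 19.1 CPM in WT. *ATG39*, a receptor for autophagy of the nuclear envelope, had 28.7 and 29.3 CPM in *tho2Δ*, against 6.03 and 4.36 CPM in WT. *CSR2* encodes an arrestin-like adaptor of ubiquitin ligation, and *SHC1* (an activator of chitin synthase III) and *SPR28* (a septin) are known from sporulation. The 5 genes were called higher, and *SPR28*, with 6 and 3 counts in WT, lost its call without *tho2Δ* replicate 3 (adjusted p = 0.109) or 4 (0.155). Among the other 9 regulators *GIS1* came nearest, as the 376th gene in the order of distance (1.45). *SGA1*, which shares the upstream region, had 3.73 and 4.31 CPM in *tho2Δ*, against 1.13 and 0.982 CPM in WT, a log2 fold change of 1.92 (SE 0.27, edgeR adjusted p = 0.00541) that was not called without *tho2Δ* replicate 3 (adjusted p = 0.063) or without *tho2Δ* replicate 4 (adjusted p = 0.0857).

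*GIS1*, the activator of post-diauxic genes, rose 2.2-fold, while its paralog *RPH1* was not called. *GIS1* (chromosome IV, 637139 to 639823) had 48.3 and 56.2 CPM in *tho2Δ*, against 26.7 and 20.8 CPM in WT. The log2 fold change was 1.14 (SE 0.17, edgeR adjusted p = 0.00622), and the call was lost in 1 of 13 settings, without *tho2Δ* replicate 4 (adjusted p = 0.069). *RPH1* (chromosome V, 523369 to 525759) had 28.6 and 29.8 CPM in *tho2Δ*, against 28.9 and 29.9 CPM in WT, with overlapping groups and a log2 fold change of -0.01 (SE 0.11). The ratio of *GIS1* to *RPH1* in TPM within a library does not depend on the scaling between libraries. It was 1.5 and 1.68 in *tho2Δ*, against 0.824 and 0.619 in WT, so the more abundant paralog of the pair was *GIS1* in both *tho2Δ* libraries and *RPH1* in both WT libraries. With 2 libraries a strain, an exact two-sided permutation test gave p = 0.333 for this ratio, the smallest it can give.

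**Figure D2:**
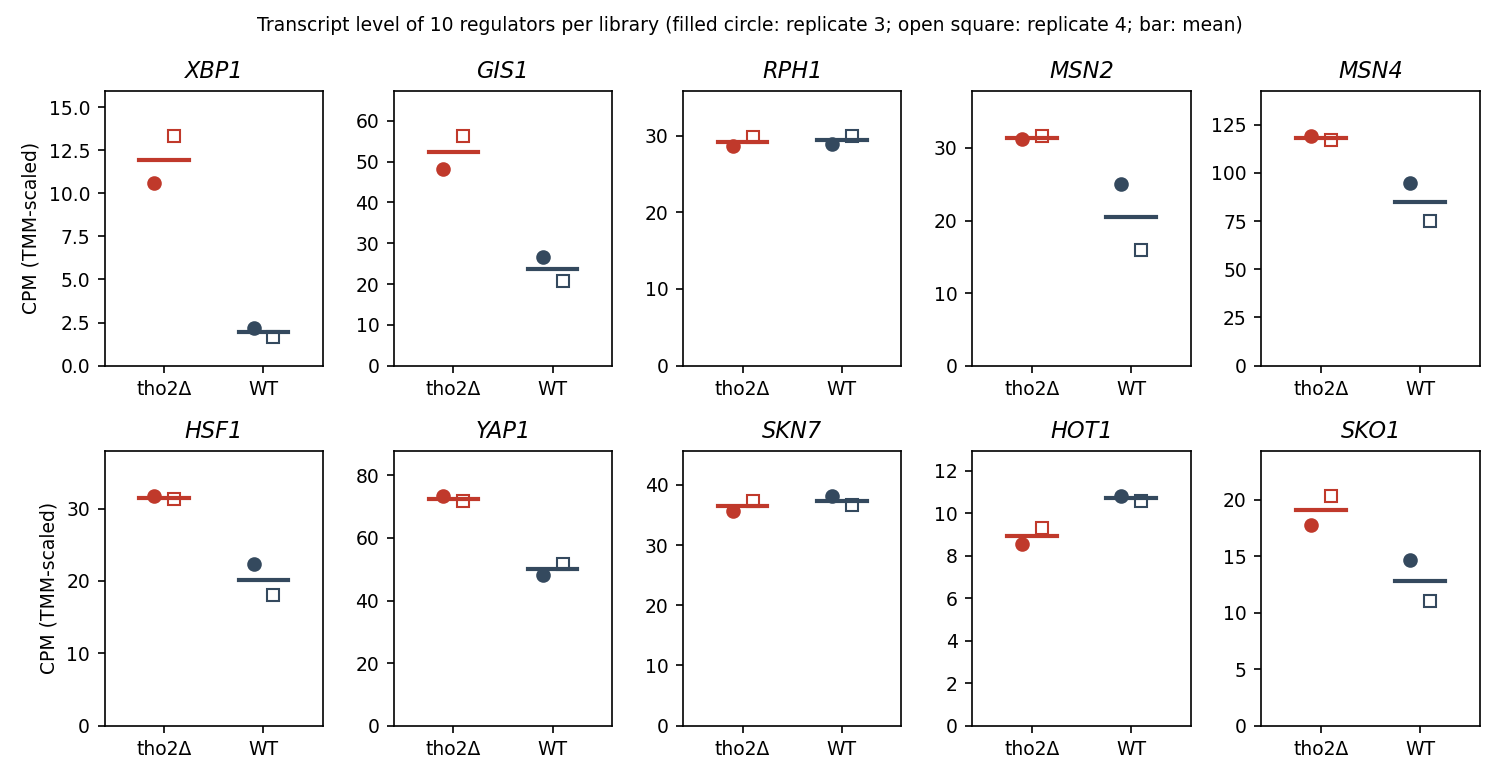
Level of each regulator transcript in the 4 libraries. Each panel is a gene, the y axis is CPM on the TMM scale from 0, circles are replicate 3, squares are replicate 4 and bars are the mean of the strain. The *XBP1* and *GIS1* libraries of *tho2Δ* lie well above those of WT, whereas those of *RPH1* and *SKN7* overlap.

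Of the general stress activators, *MSN4* rose 1.39-fold and *MSN2* was not called. *MSN4* (chromosome XI, 323228 to 325120) had 119 and 117 CPM in *tho2Δ*, against 94.7 and 74.9 CPM in WT, a log2 fold change of 0.48 (SE 0.14, edgeR adjusted p = 0.0442). *MSN2* (chromosome XIII, 344403 to 346517) had 31.2 and 31.6 CPM in *tho2Δ*, against 25 and 16.0 CPM in WT, a log2 fold change of 0.61 (SE 0.22, edgeR adjusted p = 0.0792) that was not called. The 2 strains did not overlap for either gene, but the WT libraries lay as far apart as 1.56-fold for *MSN2*. The *MSN4* call was lost with library totals (adjusted p = 0.053), with limma on either TPM scale (adjusted p = 0.0674 and 0.0892), and when *tho2Δ* replicate 3 (adjusted p = 0.246) or 4 (0.217) was left out. The log2 fold change of *MSN2* depended on the WT library kept: it was 0.95 without WT replicate 3 and 0.32 without WT replicate 4. The ratio of *MSN4* to *MSN2* in TPM was 4.25 and 4.15 in *tho2Δ*, against 4.24 and 5.25 in WT, with overlapping groups (exact permutation p = 0.667, where the smallest possible is 0.333). The ratio of *XBP1* to *MSN4* was 0.0867 and 0.110 in *tho2Δ*, against 0.0226 and 0.0214 in WT (exact permutation p = 0.333, the smallest possible).

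*HSF1* rose 1.56-fold and *YAP1* rose 1.45-fold. *HSF1* (chromosome VII, 368753 to 371254) had 31.7 and 31.3 CPM in *tho2Δ*, against 22.4 and 18.0 CPM in WT, and its log2 fold change was 0.64 (SE 0.15, edgeR adjusted p = 0.0221). *YAP1* (chromosome XIII, 253848 to 255800) had 73.3 and 71.7 CPM in *tho2Δ*, against 48.3 and 51.7 CPM in WT, and its log2 fold change was 0.54 (SE 0.11, edgeR adjusted p = 0.0143). For both genes every *tho2Δ* library lay above every WT library. Both calls were lost without *tho2Δ* replicate 3 (adjusted p = 0.156 for *HSF1* and 0.185 for *YAP1*) and without *tho2Δ* replicate 4 (0.155 and 0.156), and that of *HSF1* also with limma on log2(TPM + 0.1) (adjusted p = 0.0627). *SKN7* (chromosome VIII, 512732 to 514600), the partner of Yap1, had 35.7 and 37.4 CPM in *tho2Δ*, against 38.1 and 36.6 CPM in WT, and the groups overlapped (log2 fold change -0.03, SE 0.11).

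Neither osmotic regulator passed the test. *SKO1* (chromosome XIV, 319416 to 321359) had 17.8 and 20.3 CPM in *tho2Δ*, against 14.7 and 11.0 CPM in WT. Its log2 fold change was 0.56 (SE 0.18, edgeR adjusted p = 0.0609), and it was 0.77 without WT replicate 3 and 0.36 without WT replicate 4. *HOT1* (chromosome XIII, 605981 to 608140) had 8.55 and 9.29 CPM in *tho2Δ*, against 10.8 and 10.6 CPM in WT, a log2 fold change of -0.26 (SE 0.15, edgeR adjusted p = 0.207). *HOT1* was the only member whose *tho2Δ* libraries both lay below both WT libraries, beside 36.3% of all genes tested. Its fold change turned positive with library totals (0.18) and on the TPM scales (0.11 and 0.14), where the median gene moved by 0.39 to 0.45.

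Of the 10 regulators, 5 rose (*XBP1*, *GIS1*, *HSF1*, *YAP1* and *MSN4*) and 0 fell at an adjusted p under 0.05 from edgeR, beside 18.8% of the 5890 genes tested that rose and 19.1% that fell. At the same adjusted threshold DESeq2 gave 5 higher and 0 lower, and limma gave 4 and 0 with a pseudocount of 1 TPM and 3 and 0 with 0.1 TPM. At an unadjusted p under 0.05 edgeR gave 7 higher and 0 lower. The share of all genes at that unadjusted threshold was not counted, here or for the lists below. Over all genes the TMM scale gave 1110 higher and 1127 lower, and library totals gave 1207 higher and 303 lower, with 4 regulators higher and 0 lower. Both *tho2Δ* libraries lay above both WT libraries for 7 of the 10, beside 38.6% of all genes tested. They lay below both WT libraries for 1 of the 10, beside 36.3% of all genes tested. The median log2 fold change of the 10 was 0.55, against 0.01 for all genes tested, and that of the 9 without *XBP1* was 0.54. Without *tho2Δ* replicate 3 only *XBP1* and *GIS1* stayed called, and without *tho2Δ* replicate 4 only *XBP1*. Without either WT library more of the 10 were called. The calls over all genes fell and rose in the same way, so these shifts are not particular to the regulators.

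**Figure D3:**
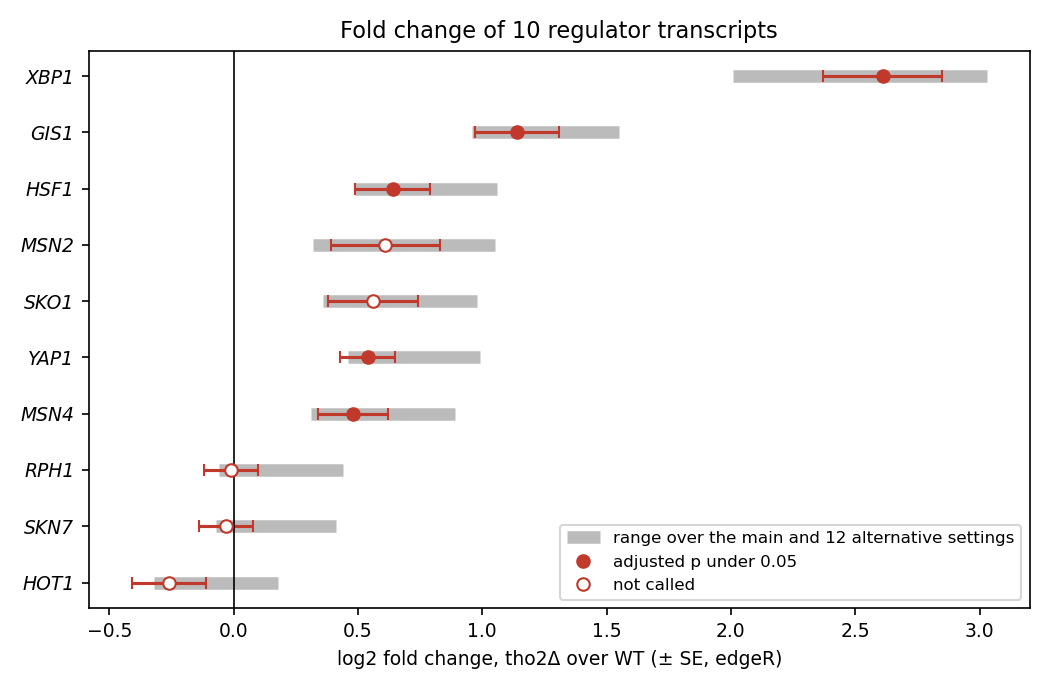
Log2 fold change of each regulator, *tho2Δ* over WT. Points are edgeR estimates with SE, filled where the adjusted p was under 0.05, and grey bars span the lowest and highest value over the 13 settings. *XBP1* runs from 2.01 to 3.03 and stays apart from the other genes, and the bars of *RPH1*, *SKN7* and *HOT1* cross 0.

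The order of levels placed *MSN4* first in every library. In TPM *MSN4* had 61.5 and 61.8 in *tho2Δ* and 43.2 and 25.6 in WT, and *YAP1* followed with 36.8 and 36.5 in *tho2Δ* and 21.3 and 17.1 in WT. In *tho2Δ* came *GIS1* (17.6 and 20.8), *SKN7* (18.8 and 19.9), *MSN2* (14.5 and 14.9), *HSF1* (12.4 and 12.5), *RPH1* (11.7 and 12.4), *SKO1* (8.95 and 10.4), *XBP1* (5.33 and 6.79) and *HOT1* (3.88 and 4.28). Of these neighbours, *GIS1* and *SKN7* did not differ beyond their spread, and the values of *HSF1* and *RPH1* met. In WT came *SKN7* (17.6 and 12.7), *RPH1* (10.4 and 8.09), *MSN2* (10.2 and 4.88), *GIS1* (8.58 and 5.01), *HSF1* (7.71 and 4.65), *SKO1* (6.54 and 3.65) and *HOT1* (4.30 and 3.17). *XBP1* came last (0.975 and 0.549). Within each WT library the order was the same, except that *MSN2* and *GIS1* changed places. Across the WT libraries, *YAP1* overlapped *SKN7*, and neighbours from *RPH1* down to *HOT1* overlapped.

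The targets of the general stress factors had larger fold changes than the mRNAs of the factors, a difference that was not tested. Of 26 genes that Msn2 and Msn4 are known to activate, 25 rose and 0 fell, beside 18.8% and 19.1% of all genes tested. Their median log2 fold change was 1.89. *XBP1* is itself 1 of the 26, so that 24 of the other 25 rose. *HSP42*, a small heat shock protein, had 376 and 368 CPM in *tho2Δ*, against 65.5 and 60.7 CPM in WT, a log2 fold change of 2.56 (SE 0.12, edgeR adjusted p = 0.000906). *SOL4*, a lactonase of the pentose phosphate pathway, had 103 and 97.4 CPM in *tho2Δ*, against 22.1 and 19.3 CPM in WT. *TFS1*, an inhibitor of carboxypeptidase Y, had 334 and 314 CPM in *tho2Δ*, against 83.5 and 82.7 CPM in WT. *HXK1*, a hexokinase, had a log2 fold change of 0.72 and was the gene of the list that did not pass (adjusted p = 0.0631). This list and those below were written with earlier results of these data known. Of its 26 genes, 25 carry an STRE in the window of 500 bases. The risen genes without *tho2Δ* replicate 3 or 4 numbered 18 in each case.

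The Hsf1 targets rose in part. Of 18 genes that depend on Hsf1, 13 rose, 0 fell and 5 did not pass, with a median log2 fold change of 1.29. Among all genes tested, 18.8% rose and 19.1% fell. *HSP42* and *HSP104* are on the Msn2 and Msn4 list too, and of the 16 genes that are not, 11 rose, with a median of 1.06. *HSP78*, the disaggregase of mitochondria, had 321 and 324 CPM in *tho2Δ*, against 82.5 and 103 CPM in WT, and *CUR1*, a sorting factor for misfolded proteins, had 43.9 and 38.2 CPM in *tho2Δ*, against 13.0 and 11.5 CPM in WT. The 5 that did not pass were *SSA1*, *SSA2*, *HSC82*, *YDJ1* and *HCH1*, which encode Hsp70, Hsp90 and cochaperone proteins. Their WT libraries stood far apart: *SSA1* had 3540 and 3620 CPM in *tho2Δ*, against 1990 and 4380 CPM in WT. Without WT replicate 3 these 5 genes were called lower, and the 13 others were called higher. Without WT replicate 4, *SSA1*, *HSC82* and *HCH1* were called higher. Of the risen genes, *AHA1*, *FES1* and *MBF1* lost their calls when *tho2Δ* replicate 3 or 4 was left out.

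Most of the listed genes of the starvation branch rose. Of 9 genes that Gis1 or Rph1 are known to activate or to repress, 8 rose, 0 fell and *DPP1* did not pass. The list pools activated and repressed genes, so this is not a count of genes moving with an activator. The median log2 fold change was 0.91, and 18.8% of all genes tested rose and 19.1% fell. *SSA3*, an Hsp70 gene of the post-diauxic phase, had 36.3 and 34.3 CPM in *tho2Δ*, against 9.78 and 9.01 CPM in WT. *GRE1*, a hydrophilin of stress, had 10.6 and 12.2 CPM in *tho2Δ*, against 2.41 and 2.26 CPM in WT. *ATG8*, the ubiquitin-like protein of autophagosomes and a gene that Rph1 represses, had 12.9 and 14.7 CPM in *tho2Δ*, against 4.64 and 5.34 CPM in WT. The risen genes without *tho2Δ* replicate 3 or 4 numbered 3 in each case, and these included *SSA3*, *GRE1* and *ATG8*.

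None of 5 genes that Xbp1 is known to repress passed the test, beside 18.8% of all genes tested that rose and 19.1% that fell. *SMF2*, *CLN3*, *CLB2*, *CLN1* and *CYS3* had log2 fold changes of 0.33, 0.93, 0.24, -0.08 and -0.46. *CLN3*, the G1 cyclin that starts the cell cycle, had 12 and 14.8 CPM in *tho2Δ*, against 9.01 and 4.91 CPM in WT (edgeR adjusted p = 0.0612). At an unadjusted p under 0.05 edgeR gave 2 higher and 1 lower. At the adjusted threshold DESeq2 called 1 higher, scaling by library totals 1, and limma 1 with a pseudocount of 1 TPM and 0 with 0.1 TPM. When either WT library was dropped, edgeR called 2 higher (*SMF2* and *CLN3*) and 1 lower (*CYS3*) at that threshold.

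Of 17 targets of the oxidative factors Yap1 and Skn7, 4 rose (23.5%) and 3 fell (17.6%), near the shares of all genes tested (18.8% and 19.1%), with a median log2 fold change of -0.05. *OYE3*, an NADPH oxidoreductase, had 14.7 and 13.8 CPM in *tho2Δ*, against 2.44 and 3.89 CPM in WT, and *SRX1*, *AHP1* and *CCP1* rose with it. *GLR1*, the glutathione reductase, had 100 and 98.6 CPM in *tho2Δ*, against 154 and 174 CPM in WT, and *YCF1* and *ATR1*, transporters of conjugates and drugs, fell too. With library totals 5 of these genes rose and 0 fell, with a median of 0.36, and without *tho2Δ* replicate 3 or 4 only *OYE3* was called. When WT replicate 3 was dropped, 6 rose and 7 fell, and dropping WT replicate 4 gave 7 and 4. Of 11 targets of the osmotic factors Hot1 and Sko1, 7 rose and 1 fell, with a median of 0.78. *GPD1*, the first enzyme of glycerol synthesis, had 310 and 322 CPM in *tho2Δ*, against 146 and 178 CPM in WT, and *HAL1*, a gene of salt tolerance, had 11.6 and 13.5 CPM in *tho2Δ*, against 4.49 and 5.0 CPM in WT. *GPP1*, the phosphatase of the next step, fell to 174 and 176 CPM in *tho2Δ*, against 570 and 1060 CPM in WT (log2 fold change -2.22, SE 0.31, edgeR adjusted p = 0.00534). Without *tho2Δ* replicate 3 the calls of this list were 1 higher (*HAL1*) and 1 lower (*GPP1*), and without *tho2Δ* replicate 4 there were 0, with adjusted p = 0.0574 for *HAL1* and 0.053 for *GPP1*. When WT replicate 3 was dropped, 7 rose and 3 fell, and dropping WT replicate 4 gave 7 and 2.

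**Figure D4:**
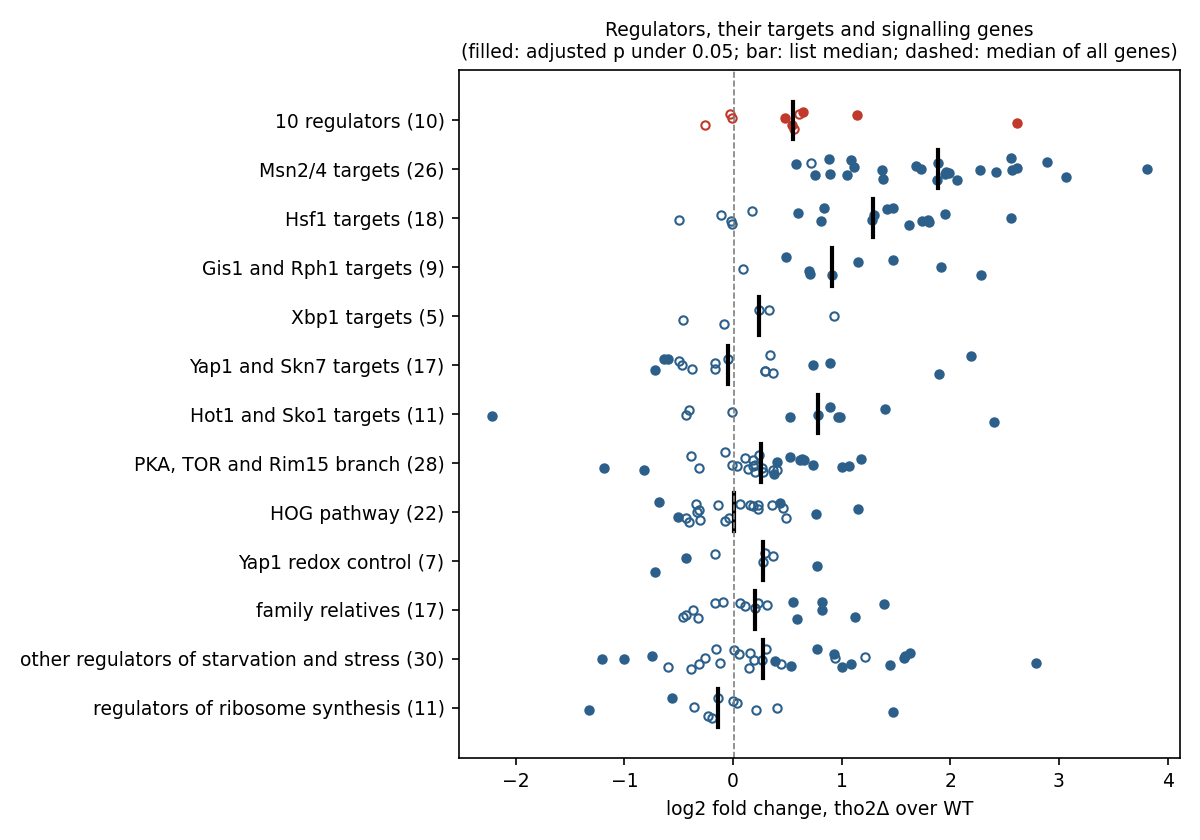
Log2 fold change, *tho2Δ* over WT, of the 10 regulators (red) and of the genes of each list (blue). Each point is a gene, filled where the adjusted p was under 0.05, black bars are list medians and the dashed line is the median of all genes tested. The Msn2 and Msn4 targets centre on 1.89 and the Hsf1 targets on 1.29, against 0.55 for the regulators.

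Upstream of the starvation factors, calls went in both directions on the TMM scale, and of the kinase subunits only *TPK3* fell. Of 28 genes of the protein kinase A, TOR and Rim15 branch, 10 rose (35.7%) and 2 fell (7.14%). The median log2 fold change was 0.26, and 18.8% of all genes tested rose and 19.1% fell. *TPK2*, a catalytic subunit of protein kinase A, had a log2 fold change of 1.18, and *BCY1*, the inhibitory subunit, one of 0.74. *TPK2* had 89.9 and 103 CPM in *tho2Δ*, against 40.7 and 44.2 CPM in WT, whereas *TPK3*, also a catalytic subunit, had 13.2 and 11.8 CPM in *tho2Δ*, against 19.1 and 25.2 CPM in WT. *RAS1*, a GTPase that activates adenylate cyclase, had 25.4 and 23.9 CPM in *tho2Δ*, against 56.1 and 56.4 CPM in WT (log2 fold change -1.19, SE 0.11, edgeR adjusted p = 0.00213). *RIM15* itself had 53.9 and 59.9 CPM in *tho2Δ*, against 47.2 and 38.7 CPM in WT and did not pass (adjusted p = 0.0766). Without *tho2Δ* replicate 3 or 4 the calls were 2 higher, *TPK2* among them, and 1 lower (*RAS1*), without WT replicate 3 they were 17 higher and 3 lower, without WT replicate 4 they were 11 higher and 4 lower, and with library totals 9 rose and 0 fell.

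Of 22 genes of the Hog1 pathway, 3 rose (*OPY2*, *PTP2* and *STE11*, 13.6% of the list) and 2 fell (*SSK22* and *SLN1*, 9.09%), beside 18.8% and 19.1% of all genes tested, with a median log2 fold change of 0.01, and *HOG1* had 177 and 171 CPM in *tho2Δ*, against 167 and 166 CPM in WT. *PTP2*, a phosphatase that acts on Hog1, had 22.5 and 22.4 CPM in *tho2Δ*, against 12 and 8.16 CPM in WT. Of 7 genes that control Yap1, *CRM1*, its exportin, rose with a log2 fold change of 0.77, and *PSE1*, its importin, and the thioredoxin gene *TRX1* fell by 0.72 and 0.43. None of these calls held without *tho2Δ* replicate 3 or 4 (adjusted p from 0.0631 to 0.318), and with library totals 0 genes of these 2 lists fell. For the Hog1 pathway, when WT replicate 3 was dropped 4 rose and 4 fell, and dropping WT replicate 4 gave 6 and 7. For the control of Yap1 these counts were 4 and 2 without WT replicate 3 and 2 and 3 without WT replicate 4.

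Other transcription factor genes moved in a mixed way. Over 58 further factors, 18 rose, 5 fell and 35 did not pass, with a median log2 fold change of 0.18. Among all genes tested, 18.8% rose and 19.1% fell, the shares beside which the counts below stand. Among 17 relatives of the members, 6 rose and 0 fell, and they were *SWI4*, *ACA1*, *GCR1*, *CST6*, *MGA1* and *YAP6*. *SWI4*, the G1 factor of the Xbp1 family, had 30.0 and 32.4 CPM in *tho2Δ*, against 18.4 and 17.0 CPM in WT, while *CAD1*, the nearest relative of *YAP1*, had 16.8 and 18.4 CPM in *tho2Δ*, against 16.1 and 12.3 CPM in WT and did not pass. At the adjusted threshold DESeq2 gave 6 relatives higher and 0 lower, and limma 4 and 0 on both TPM scales. At an unadjusted p under 0.05 edgeR gave 6 and 1. None of the 6 was called without *tho2Δ* replicate 3 or 4. Of 30 other regulators of starvation and stress, 11 rose and 3 fell. *CAT8*, an activator of gluconeogenesis genes, had 43.6 and 46.5 CPM in *tho2Δ*, against 7.34 and 5.59 CPM in WT, a log2 fold change of 2.79 (SE 0.17, edgeR adjusted p = 0.00131), higher than that of *XBP1*. *ADR1*, an activator of genes for ethanol and fatty acid use, had 200 and 196 CPM in *tho2Δ*, against 71.2 and 62.5 CPM in WT. *MIG2*, a repressor in high glucose, had 6.09 and 5.03 CPM in *tho2Δ*, against 13.8 and 11.8 CPM in WT, and *GCN4* and *UME6* fell too, with log2 fold changes of -1.0 and -0.75. Without *tho2Δ* replicate 3 or 4 the risen regulators of this list were *CAT8* and *ADR1* alone, and the fallen ones were *MIG2* without replicate 3 and 0 without replicate 4. Leaving out either WT library gave 13 higher and 5 lower. Of 11 regulators of ribosome synthesis, *TOD6*, a repressor of ribosome assembly genes, had 9.01 and 9.18 CPM in *tho2Δ*, against 22.2 and 23.7 CPM in WT, *RAP1* fell by 0.56 on the log2 scale and *CRF1*, a corepressor of ribosomal protein genes, rose by 1.47, and the other 8 did not pass. The calls of *RAP1* and *CRF1* were lost without *tho2Δ* replicate 3 or 4, and when WT replicate 3 was dropped 2 rose and 5 fell. With library totals 0 genes fell in the starvation and stress list and 0 in the ribosome list.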

How the data were processed

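RNA of *tho2Δ* and WT yeast was sequenced, with 2 libraries per strain. The authors deposited 1 table of raw read counts, TPM and FPKM per gene and library. The counts and the TPM (scaled by gene length, summing to nearly the same total per library) were used, and the deposited FPKM values were not. The submitters' processing notes list, without roles, build R64 and the tools HISAT2 2.1.0, StringTie 1.3.4d, Trimmomatic and bcl2fastq 2.20.0. Annotation and strand setting were not given in the sources used here. Reads of overlapping and antisense transcripts therefore cannot be told apart. No annotated gene overlaps any of the 10 members. Empty lines of the deposited file, 3 in number, were skipped. The paper describes hot phenol extraction and the labels a column kit.

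Counts were tested across all 5890 genes kept by edgeR's expression filter with TMM scaling and genotype as the only term, by the quasi-likelihood test of edgeR 4.0.16 in R 4.3.3 (Benjamini-Hochberg adjusted p under 0.05). The SE was obtained as the size of the log2 fold change over the root of F. The 12 alternatives were median-of-ratios factors, library totals, DESeq2 1.42.0, limma 3.58.1 on log2(TPM + 1) and log2(TPM + 0.1) (genes averaging 1 TPM or more), the replicate number as a block, filtering by a mean count of 50 or by nothing, and each library left out. The study's methods name no test for these data. The scripts were checked on simulated counts.

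The members and lists (222 entries, all matched, 2 by synonym) were chosen with earlier results of these data known. Genes named are the members, *THO2*, relatives, the 3 smallest p of each list, its calls in the direction of fewer calls, all its calls where 5 or fewer, the genes beside *XBP1* and the 5 profiles nearest to it, and a few members of these lists named after their values were seen. A gene that this rule would name is not reported here. The tRNA gene on the other side of *XBP1* was not analysed here. Motifs were searched on both strands in the 500 bases before the start codon in the RefSeq R64 genome, so windows include 5′ leaders. Between replicates, gene counts differed by more than counting noise (median chi-square 2.47 in *tho2Δ* and 42.9 in WT, against 0.455 for counting noise), so each library was counted once. A count of 3, the limit that a count of 0 allows, is 0.0692 to 0.128 CPM, for counting error only. Plots were made with matplotlib 3.10.9.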

Additional observations from a re-analysis of the deposited data

How the results depend on the processing

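The call of *XBP1* held in all 12 alternatives, and its log2 fold change ran from 2.43 to 2.81 with 1 library left out. The count of risen regulators was 5, and it became 3 with limma on log2(TPM + 0.1) and between 1 and 7 with 1 library left out, while 0 fell in every setting. Over all genes, 1110 were higher and 1127 lower. Scaling by library totals gave 303 lower genes, and limma gave 319 with a pseudocount of 1 and 262 with 0.1. Leaving out 1 library, the higher genes ran from 307 to 1790 and the lower genes from 200 to 1847. Of all calls, 49.6% were higher on the TMM scale, against 79.9% by library totals. Leaving out a library of *tho2Δ* leaves the spread to the WT pair, which differ more, and the lone library is assumed to vary like them. Leaving out a WT library leaves the spread to the *tho2Δ* pair, which differ less, so calls gained in that way add no weight.

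Directions turned only in members that were not called. *HOT1* went to 0.18 with library totals and to 0.11 and 0.14 on the TPM scales with pseudocounts of 1 and 0.1. *SKN7* went to 0.41, 0.35 and 0.37 in these settings, and with 1 library left out it ran from -0.07 to 0.00. *RPH1* went to 0.44, 0.36 and 0.39, to 0.00 with a mean count of at least 50, and from -0.06 to 0.02 with 1 library left out. The median gene moved by about as much in the first 3 settings.

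The labels give both strains the replicate numbers 3 and 4, but nothing says that a number marks a shared culture or day, and the differences between the numbers in the strains had a correlation of 0.00146 across genes. With the replicate number as a block, 6 regulators rose, *MSN2* being the added one (log2 fold change 0.65, adjusted p = 0.0305), *XBP1* had a log2 fold change of 2.60, and 1089 genes were higher and 1040 lower. In the lists, the block took the Xbp1 targets called higher to 1, the fallen genes of Yap1 control to 1 and the risen genes of the protein kinase A, TOR and Rim15 list to 7. Genes near 1 count per library are limited by depth, whereas the lowest member, *XBP1* in WT replicate 4, had 39 counts.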
